A study of Citrus sinensis with 6 samples.

Results

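The genes described are 6 defence-linked genes of sweet orange (Citrus sinensis), taken by name from the transcript tables: CHI1, LOC102627878, which carries the synonym chitinase, LOC102614791, which carries the synonym gns1, a name for a beta-1,3-glucanase, GSTU1, VPE and AOS. They are 6 of 31688 genes in the tables, and all 6 are among the 17355 genes with a mean of at least 1 FPKM (fragments scaled to transcript length and to library depth) over the libraries. RNA came from the albedo, the white inner layer of the peel, excised 3 days after inoculation, and was sequenced as 6 libraries. The fruit of 3 libraries had received 0.2 mM salicylic acid (SA) beside the antagonist yeast Rhodotorula mucilaginosa, and that of 3 only the yeast. Every library thus carries the yeast treatment, and no untreated fruit was analysed here. The labels name no inoculum and leave unsaid whether each library is a fruit of its own, so the p-values cover no more than the spread between these samples, possibly technical. The series asked how defence genes of the fruit respond when salicylic acid strengthens the yeast.

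Chitinases and beta-1,3-glucanases cut chitin and glucan, the polymers of fungal cell walls, and plants make both among their pathogenesis-related proteins. Tau class glutathione transferases, to which the symbol GSTU1 refers, join glutathione to reactive or foreign compounds. VPE, the vacuolar processing enzyme, is a cysteine protease that matures vacuolar proteins and is known from tobacco and Arabidopsis for its part in programmed cell death. AOS, allene oxide synthase, makes the committed step of jasmonate synthesis, and in many plants salicylic acid and jasmonate signalling oppose each other. The files and the reference table give CHI1 no product name, so no role is given to it here.

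None of the 6 genes differed detectably between yeast + SA and yeast-only fruit. With limma, 0 of 6 passed an adjusted p of 0.05 over all genes, where 0.00576% of tested genes passed (1 of 17355), and their adjusted p-values were 0.962 to 0.999. An unadjusted p under 0.05 was reached by 0 of 6, against 5.23% of tested genes. The groups overlapped in all 6 genes, while they did not overlap in 10.2% of tested genes. By the sign of the mean difference 3 members were higher and 3 lower in yeast + SA fruit. Their median difference was 0.10 on the log2(FPKM + 1) scale, against 0.02 over all tested genes. Two-sided exact permutation tests of the 3 against 3 libraries gave p-values of 0.3 to 0.9 for the 6 genes, where 0.1 is the smallest p that this design allows. In bulk tissue, fewer cells of a type and less RNA per cell cannot be told apart.

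**Figure D1:**
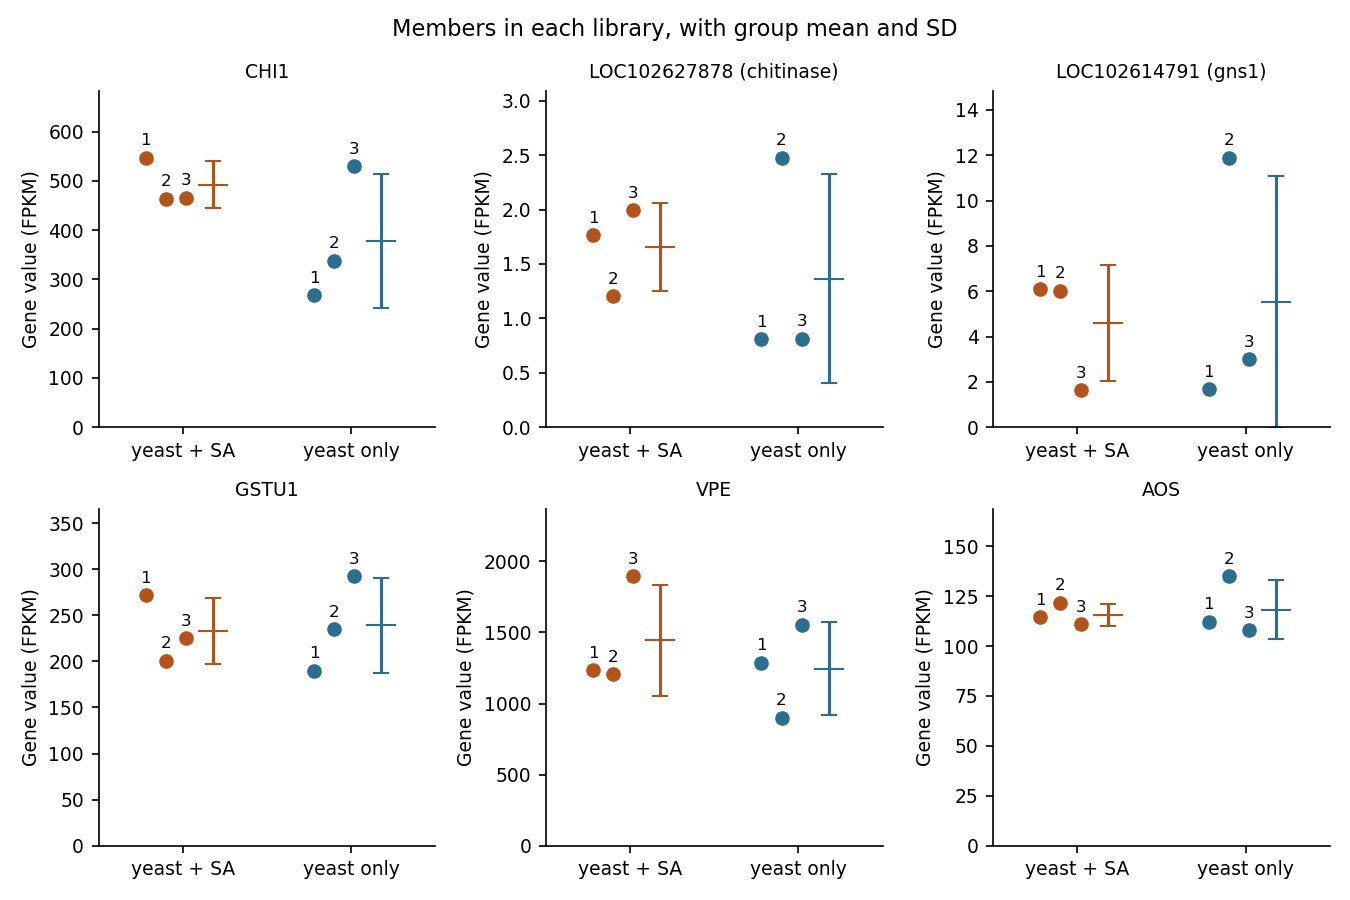
Gene values in FPKM (linear axes from 0) for the 6 genes, with each library as a point numbered by replicate, yeast + SA on the left and yeast only on the right of each panel, and bars for the group mean and SD (n = 3 each). The groups overlap in every panel, and for gns1 the lower SD bar of the yeast-only group is cut at 0. In the yeast-only group, replicate 2 is the highest point for the chitinase gene, gns1 and AOS.

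CHI1 had the largest difference of the members on the log2(FPKM + 1) scale with all 6 libraries weighted equally. With library weights its log2 difference was 0.26, against 0.31 for the chitinase gene. Without replicate 2 of the yeast-only group it was 0.38, against 0.64 for gns1 and 0.54 for the chitinase gene. In replicates 1 to 3 it stood at 547, 464 and 466 FPKM in yeast + SA fruit, and at 268, 338 and 530 FPKM in yeast-only fruit. The libraries of the yeast + SA group lay close together, and the yeast-only group spanned a 1.98-fold range, whose top library reached past replicates 2 and 3 of the yeast + SA group. The means were 492 ± 47.4 FPKM in yeast + SA fruit and 379 ± 136 FPKM in yeast-only fruit (SD, n = 3 each), a ratio of 1.30. The log2 difference was 0.43 with an SE of 0.23 and a 95% interval of -0.10 to 0.96 (adjusted p = 0.962 in limma). Its exact permutation p was 0.3, the smallest of the 6 genes. Without replicate 3 of the yeast-only group its mean there was 303 FPKM and the log2 difference 0.70, with an adjusted p of 0.648. Without replicate 1 of the yeast-only group the difference was 0.21, against 0.26 for VPE and -0.50 for gns1.

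CHI1 has a single transcript of 2 exons and 863 bases, on NC_023050.1 from 24361243 to 24362439 on the plus strand. No source used here names the genome build, and coordinates are those of the files. Downstream of it lie 2 unannotated assembled loci, MSTRG.9995 after 5665 bases and MSTRG.9996 after 7682 bases. MSTRG.9996, on the minus strand, was at 15.7, 15.0 and 23.3 FPKM in yeast + SA fruit and at 7.45, 7.72 and 2.68 FPKM in yeast-only fruit. Its groups did not overlap, and its log2 difference of 1.53 had an adjusted p of 0.801 in limma, so it did not pass. MSTRG.9995 was at 5.25, 8.87 and 12.1 FPKM in yeast + SA fruit and at 3.30, 5.54 and 1.98 FPKM in yeast-only fruit, and there the groups overlapped (log2 difference 1.09, adjusted p = 0.880 in limma). Of the 11 tested neighbours of all members, 1 had groups that did not overlap, against 10.2% of tested genes, and 2, these loci, had an unadjusted p under 0.05, against 5.23% of tested genes. The replicates of MSTRG.9996 did not follow those of CHI1: within the yeast-only group it was lowest in replicate 3, where CHI1 was highest.

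The chitinase gene LOC102627878 was the lowest member. It was at 1.76, 1.20 and 1.99 FPKM in yeast + SA fruit, and at 0.810, 2.48 and 0.813 FPKM in yeast-only fruit. In the yeast-only group replicate 2 stood 3.06-fold above replicate 1, above every library of the yeast + SA group, and the other replicates stood below all of those. Means were 1.65 ± 0.406 FPKM in yeast + SA fruit and 1.37 ± 0.961 FPKM in yeast-only fruit (SD, n = 3 each). The log2 difference was 0.23 (SE 0.29, 95% interval -0.43 to 0.88; adjusted p = 0.978 in limma), and it was 0.54 without replicate 2 of the yeast-only group. These values rest on a mean coverage of 6.31 to 9.53 reads per base in yeast + SA fruit and 3.33 to 12.1 reads per base in yeast-only fruit, so they carry more counting error than those of the abundant members. On this scale a difference at low FPKM is understated.

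LOC102627878 has 3 exons and 1145 bases, on NC_023053.1 from 517089 to 518535. Another gene on the same strand, LOC102628172, begins 4552 bases beyond it. The tables give LOC102628172 no product. It was at 4.65, 3.74 and 1.08 FPKM in yeast + SA fruit and at 1.48, 4.86 and 1.04 FPKM in yeast-only fruit. Like the chitinase gene it was highest in replicate 2 of the yeast-only group, but it was low in replicate 3 of the yeast + SA group, where the chitinase gene was high. Its log2 difference was 0.30 (adjusted p = 0.986 in limma). Leaving out replicate 2 of the yeast-only group gave 0.76, and leaving out its replicate 3 gave 0.0048.

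The glucanase gene gns1 (LOC102614791) varied most. It was at 6.10, 6.02 and 1.64 FPKM in yeast + SA fruit, and at 1.66, 11.9 and 2.99 FPKM in yeast-only fruit. High and low libraries occurred in both groups, and the highest, replicate 2 of the yeast-only group, stood 7.26-fold above the lowest, replicate 3 of the yeast + SA group. Its mean was 4.58 ± 2.55 FPKM in yeast + SA fruit and 5.51 ± 5.56 FPKM in yeast-only fruit (SD, n = 3 each). The log2 difference was -0.02, its SE 0.58 and its 95% interval -1.34 to 1.30 (adjusted p = 0.999 in limma). Its direction rests on single libraries, being 0.64 without replicate 2 of the yeast-only group, and 0.45 without replicate 3 of the yeast + SA group. Its SD within groups was larger than that of 98.95% of the 5429 tested genes with a mean FPKM within 2-fold of its own.

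The value of gns1 also depends on how reads were divided at its locus. Its annotated transcript has 2 exons and 1234 bases, on NW_006257074.1 from 482406 to 484238 on the plus strand. The assembly puts it in the same locus as LOC102614216, a gene from 429147 to 431310 on the same strand. Another transcript, MSTRG.18844.1, starts with LOC102614216 and ends with gns1. This joined transcript was listed at 0 in 5 libraries and at 4.07 FPKM in replicate 2 of the yeast-only group. The annotated transcript of LOC102614216 was at 3.66, 2.82 and 0.717 FPKM in yeast + SA fruit and at 1.29, 4.67 and 1.71 FPKM in yeast-only fruit. It was thus highest in the same library as gns1 and lowest in the same library as gns1. With the joined transcript counted to gns1, an alternative chosen after seeing the data, the log2 difference of gns1 was -0.15.

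Among all 17354 other tested genes, LOC102614216 with its joined transcript was the number 2 in closeness to gns1. Closeness was the root mean square difference of log2(FPKM + 1), centred over the 6 libraries, and was 0.20 for this gene. LOC102628172, the neighbour of the chitinase gene, was number 6 by the same measure, at 0.37, and the chitinase gene itself number 795, at 0.70. No source used here says how reads shared between similar genes were assigned, and its part in these likenesses was not tested. Genes singled out here were chosen after their values were seen.

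**Figure D2:**
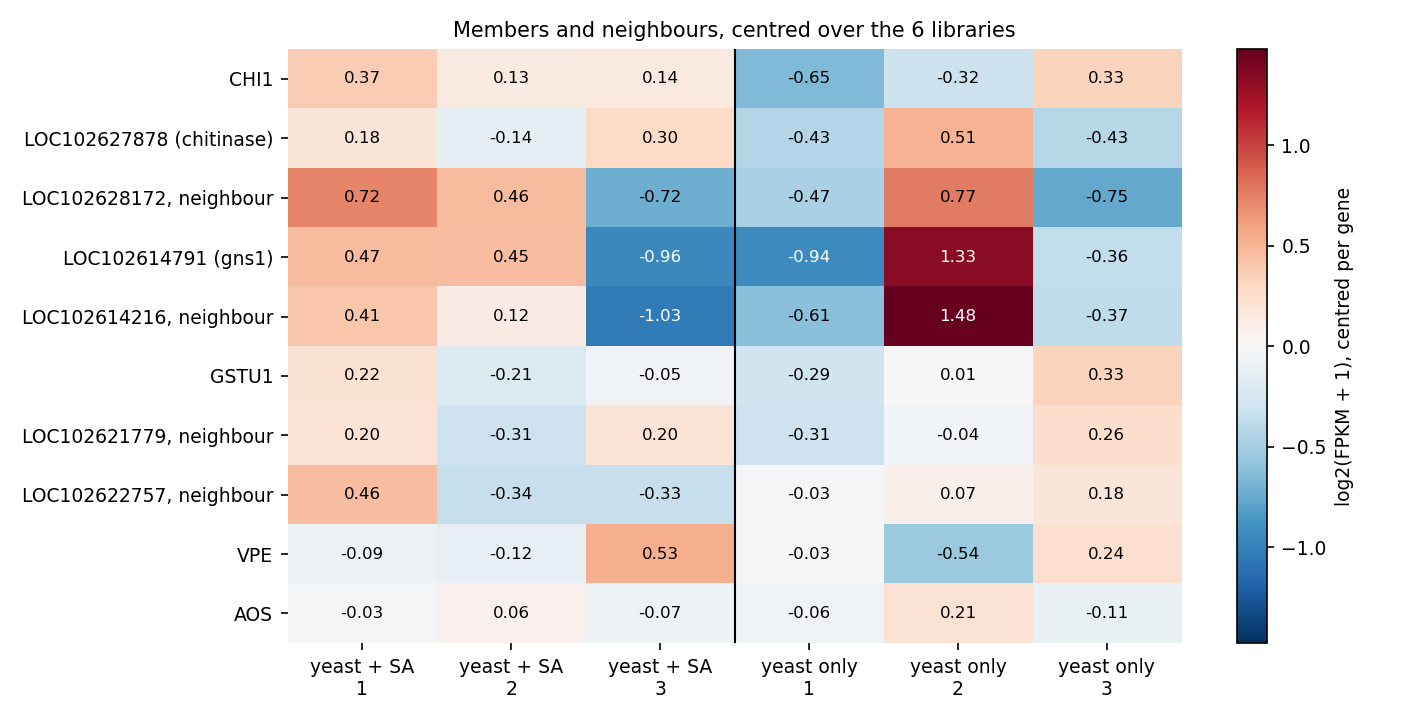
Rows are the 6 genes and 4 neighbours, columns the 6 libraries, with yeast + SA on the left of the line, and each cell gives log2(FPKM + 1) centred on the mean of the gene over the 6 libraries. The pattern of gns1 (1.33 in replicate 2 of the yeast-only group, -0.96 in replicate 3 of the yeast + SA group) recurs in LOC102614216 (1.48 and -1.03 in the same libraries), and AOS stays between -0.11 and 0.21. In replicate 2 of the yeast-only group the value of LOC102614216 includes the joined transcript, which ends with gns1, at 4.07 of 8.74 FPKM.

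GSTU1 was at 272, 201 and 225 FPKM in yeast + SA fruit and at 190, 235 and 292 FPKM in yeast-only fruit. The 3 libraries of the yeast + SA group lay within the range of the yeast-only group. Its mean was 233 ± 35.9 FPKM in yeast + SA fruit and 239 ± 51.4 FPKM in yeast-only fruit (SD, n = 3 each). The log2 difference was -0.03 (SE 0.19, 95% interval -0.45 to 0.39; adjusted p = 0.998 in limma). It turned to 0.13 without replicate 3 of the yeast-only group, and to 0.07 without replicate 2 of the yeast + SA group.

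The GSTU1 transcript has 2 exons and 651 bases, on NC_023050.1 from 13205470 to 13206884 on the minus strand. On the plus strand an assembled transcript named for LOC102622757, MSTRG.9524.1, spans it, from 13205194 to 13252573, with 2 exons and 407 bases. That transcript was at 56.6, 32.1 and 32.3 FPKM in yeast + SA fruit and at 39.9, 43.1 and 46.6 FPKM in yeast-only fruit. The annotated model of LOC102622757 itself did not exceed 0.250 FPKM in any library. The labels do not say that reads were counted by strand, so reads from GSTU1 and from the opposite strand cannot be told apart where their exons overlap. Any such overlap is limited to the 407 exon bases of MSTRG.9524.1, and its extent was not determined. Another gene on the minus strand, LOC102621779, lies 6097 bases from GSTU1. It was at 259, 182 and 259 FPKM in yeast + SA fruit and at 182, 219 and 270 FPKM in yeast-only fruit. Like GSTU1, it was lower in replicate 2 of the yeast + SA group and in replicate 1 of the yeast-only group than in the other libraries of each group, and it ranked number 225 in closeness to GSTU1.

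VPE was the most abundant member and stood at or above the level of 99.9% of tested genes. It was at 1234, 1207 and 1895 FPKM in yeast + SA fruit and at 1285, 899 and 1552 FPKM in yeast-only fruit. Replicate 3 was the highest library of each group, and the lowest library of all was replicate 2 of the yeast-only group. Means were 1445 ± 390 FPKM in yeast + SA fruit and 1245 ± 329 FPKM in yeast-only fruit (SD, n = 3 each). The log2 difference was 0.22 (SE 0.26, 95% interval -0.36 to 0.80; adjusted p = 0.978 in limma). It was 0.0064 without replicate 3 of the yeast + SA group and 0.00052 without replicate 2 of the yeast-only group, so the higher mean rests on both of these libraries. VPE has a single transcript of 9 exons and 1840 bases, on NC_023049.1 from 18336197 to 18341410.

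AOS was the steadiest member. It was at 114, 122 and 111 FPKM in yeast + SA fruit and at 112, 135 and 108 FPKM in yeast-only fruit. Apart from replicate 2, somewhat higher in both groups, the libraries lay within a few FPKM of each other. Its mean was 116 ± 5.40 FPKM in yeast + SA fruit and 118 ± 14.6 FPKM in yeast-only fruit (SD, n = 3 each). The log2 difference was -0.03, its SE 0.13 and its 95% interval -0.32 to 0.27 (adjusted p = 0.996 in limma), and became 0.07 without replicate 2 of the yeast-only group. Expressed as ratios, the interval runs from 0.800 to 1.21, the narrowest of the 6 genes.

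Beneath the steady total of AOS, the division among its transcripts varied. AOS lies on NC_023048.1 from 26265875 to 26268236 on the minus strand. Its annotated transcript has 2 exons and 2231 bases, and an assembled transcript of 1 exon and 2362 bases, MSTRG.6451.1, covers the same span, so that they differ by an intron of 131 bases. The AOS value sums both of these and a small opposite-strand transcript given below. No source used here says how reads were divided between the overlapping models, so the shares are estimates. The 1-exon transcript held 81.3%, 82.3% and 79.8% of the AOS value in yeast + SA fruit, and 65.4%, 88.3% and 75.4% in yeast-only fruit. The shares of the yeast + SA group lay close together, inside the wide range of the yeast-only group. The mean share was 81.1 ± 1.24% in yeast + SA fruit and 76.4 ± 11.5% in yeast-only fruit (SD), and a two-sided exact permutation test gave p = 0.7 (n = 3 each).

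The annotated 2-exon transcript was at 17.1, 18.8 and 20.2 FPKM in yeast + SA fruit and at 35.2, 12.2 and 21.1 FPKM in yeast-only fruit. Its extremes were both in the yeast-only group, replicate 1 being 2.87-fold above replicate 2. A small transcript on the opposite strand, MSTRG.6452.1, of 2 exons and 280 bases within the span of AOS, was at 2.23 to 4.24 FPKM in yeast + SA fruit and 3.51 to 5.34 FPKM in yeast-only fruit. Without it the log2 difference of AOS was -0.01, and over the annotated transcript alone it was -0.16. At the level of transcripts, 0 of the 8 transcripts of the members passed in limma, where 0.0338% of 26605 tested transcripts passed, and 0 of 8 had an unadjusted p under 0.05, against 5.18% of tested transcripts.

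**Figure D3:**
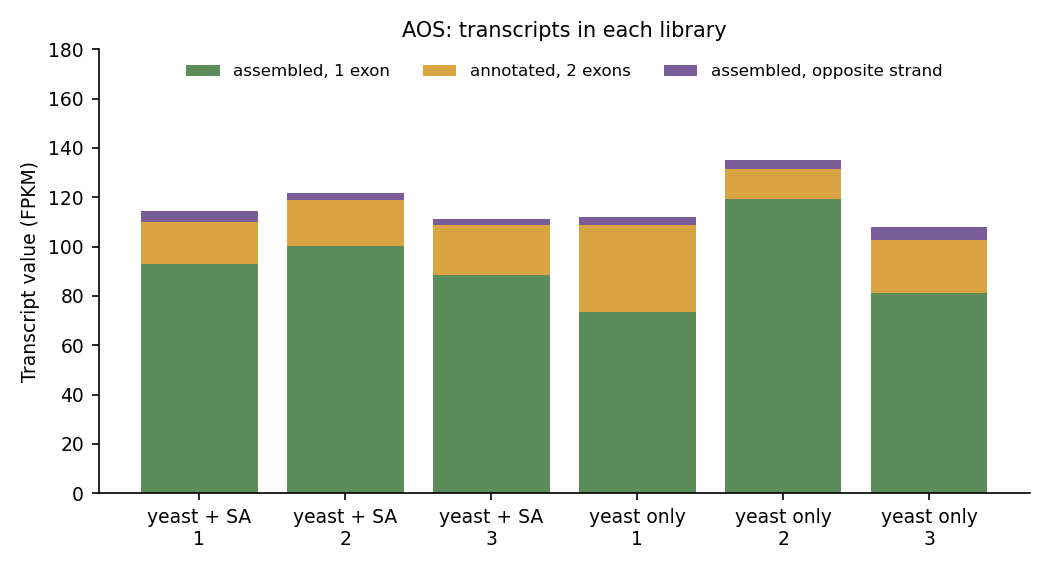
Bars give the FPKM of the 3 AOS transcripts, stacked, in each library, yeast + SA on the left and yeast only on the right. Totals lie between 108 and 135 FPKM, and the 2-exon transcript ranges from 12.2 to 35.2 FPKM, both extremes in the yeast-only group.

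The jasmonate list, 14 names matched to symbols and synonyms, found 1 gene beside AOS. This was HPL, hydroperoxide lyase, which draws on the same fatty acid hydroperoxides as AOS. HPL was at 0.569, 0.303 and 0.313 FPKM in yeast + SA fruit and at 0.634, 0.172 and 0.255 FPKM in yeast-only fruit, and was not tested because its mean was under 1 FPKM. Replicate 1 was the highest of each group, and the groups overlapped. The defence lists held the names of the members themselves, so that the 6 members were found was fixed in advance. Over all 5 defence lists, 46 names found 7 genes, HPL and the 6 members, and the list of salicylic acid genes, 15 names, found 0. Defence genes without a symbol or synonym in the tables were therefore not covered.

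Set against each other in FPKM, which is per length, the levels kept an order. VPE was above CHI1, CHI1 above GSTU1, GSTU1 above AOS and AOS above gns1 in all 6 libraries, and gns1 was above the chitinase gene in 5 of 6. The ranges over libraries overlapped for CHI1 (from 268 FPKM) and GSTU1 (up to 292 FPKM), and for gns1 (from 1.64 FPKM) and the chitinase gene (up to 2.48 FPKM). The other neighbours in the order had separate ranges. CHI1, GSTU1 and AOS stood at or above 98.6%, 96.8% and 93.3% of tested genes, gns1 at 32.2% and the chitinase gene at 7.88%.

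Among the libraries, replicate 2 of the yeast-only group was the highest of the 6 for 3 of the 6 members, gns1, the chitinase gene and AOS, and the lowest for VPE. Over all tested genes it was the highest library for 15.6% and the lowest for 18.0%. Replicate 1 of the yeast-only group was the lowest library for CHI1, the chitinase gene and GSTU1, and for 20.3% of tested genes, and had the lowest depth, 4.11 gigabases. The members did not vary as 1 group: the library highest for gns1 was the lowest for VPE, and the library highest for VPE, replicate 3 of the yeast + SA group, was the lowest for gns1.

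The 95% intervals of the differences, turned into ratios of FPKM + 1, bound what these libraries could show. They ran from 0.933 to 1.95 for CHI1, from 0.742 to 1.84 for the chitinase gene and from 0.396 to 2.46 for gns1. For GSTU1 the interval was 0.732 to 1.31 and for VPE 0.779 to 1.74. For AOS it was 0.800 to 1.21. In the fit over transcripts, the single transcript of CHI1, with the same values, had an interval of 0.894 to 2.04. A doubling thus lay outside the intervals of GSTU1, VPE and AOS, lay at the edge for CHI1, and lay within the interval of gns1. For the chitinase gene, near 1 FPKM, the interval on this scale does not bound the ratio of FPKM itself.

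**Figure D4:**
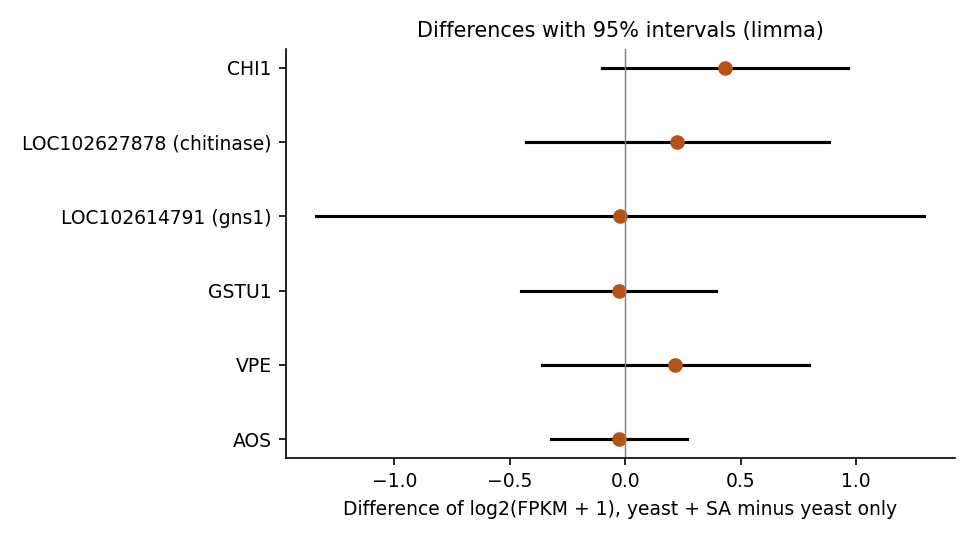
Points give the difference of log2(FPKM + 1), yeast + SA minus yeast only, and lines the 95% interval from limma (n = 3 libraries per group). Every interval crosses 0, from the narrowest, AOS (-0.32 to 0.27), to the widest, gns1 (-1.34 to 1.30).

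Per member, 50 or 51 other tested genes had a symbol of their own and a mean of at least 10 FPKM. By the same root mean square measure over the 6 libraries, the most similar of them were listed. For CHI1 these were PABP2, at 0.23, and GSTU1, at 0.26, where the spread of CHI1 about its own mean was 0.37. For the chitinase gene they were C4H1, of phenylpropanoid synthesis, at 0.15, and the chaperone gene HSP90, at 0.26, with an own spread of 0.36. For gns1 they were HAP3, at 0.55, and C4H1, at 0.62, with an own spread of 0.83. GSTU1 was nearest to TRAX, at 0.11, and TRNAT-UGU, at 0.14, and VPE to PG, a polygalacturonase gene, at 0.27, and PABP2, at 0.32, and for AOS the distance to ETR1, an ethylene receptor gene, was 0.10. For each pair other tested genes were closer, from 6 for the chitinase gene and C4H1 to 2802 for VPE and PABP2. For VPE and AOS the distances were close to the gene's own spread, 0.33 and 0.11.

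The libraries were of similar depth, 4.78 to 5.24 gigabases in yeast + SA fruit and 4.11 to 4.87 gigabases in yeast-only fruit. The log2 values correlated across genes at 0.968 to 0.977 within groups and 0.964 to 0.981 between groups, and genes are not independent replicates. Of the markers of green tissue, which borders the albedo, 9 of 9 chloroplast-encoded genes matched. They summed to 4.09 to 4.89 FPKM in yeast + SA fruit and 3.16 to 4.45 FPKM in yeast-only fruit. Only 1 of the 9, rbcL, had a mean of at least 1 FPKM. Among the others, psbD was listed at 0 in 3 libraries and psaB in replicate 2 of the yeast + SA group. Values this low are a weak gauge of green tissue. The 3 of 7 nuclear markers that matched summed to 16.8 to 25.0 FPKM in yeast + SA fruit and 24.4 to 29.2 FPKM in yeast-only fruit, and 0 of them passed in limma. The lower sum was carried by CHLASE1, a chlorophyllase gene. Its mean over the 6 libraries was 17.5 FPKM, against 1.64 for PSADB and 4.84 for PSAE, so the sum mostly follows this gene. CHLASE1 was at 16.7, 15.0 and 12.4 FPKM in yeast + SA fruit and at 18.8, 20.9 and 21.1 FPKM in yeast-only fruit. Its log2 difference was -0.45 (unadjusted p = 0.0151, adjusted p = 0.902 in limma). For PSADB and PSAE, of photosystem I, the log2 differences were 0.22 and -0.05. Their part in the values of the members was not tested, and no list of albedo markers was at hand to check the tissue itself.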

How the data were processed

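An Illumina HiSeq read the total RNA, per the labels' protocols, and no source used here names the aligner, assembler or genome build. The authors deposited for each library, per the file headers, the coverage, a signal per base that was not normalized, and the FPKM of 59106 transcripts. A deposited gene table, in a unit of its own, served as an alternative.

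Gene values were summed from transcript FPKM by gene name. They were tested as log2(FPKM + 1) for genes and transcripts with a mean FPKM of at least 1, two-sided, with limma-trend in limma 3.58.1 (R 4.3.3), adjusted over all features by the Benjamini-Hochberg method at 0.05. The test was also run on simulated data, and the outcome is not reported here. Depth in aligned bases is the ratio of coverage to FPKM, and the number of reads behind a value is unknown. Groups and replicate numbers came from the titles.

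The members and lists were chosen with earlier results of these data known. Named genes are the members, genes of the symbol lists and the 2 most similar named genes per member, of which 1 is not reported here. Neighbours within 10 kilobases, or in the same assembled locus, were added after values were seen. The planned protein families could not be built, and the symbol lists took their place. Names came from the files and from the reference table of assembly DVS_A1.0, in which 23518 gene names matched. Figures were drawn with matplotlib 3.10.9.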

Additional observations from a re-analysis of the deposited data

How the results depend on the processing

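No member passed the threshold in limma under any of the 96 alternative results (0 with an unadjusted p under 0.05 in the main test), and 89 kept their direction. With no filter, a filter of 5 FPKM, robust variance or the replicate block, the log2 difference is the same by construction. Direction could not change there, nor with annotated transcripts only for members with a single transcript, so this count overstates stability. Leaving out 1 library gave log2 differences of 0.21 to 0.70 for CHI1, 0.069 to 0.54 for the chitinase gene, -0.50 to 0.64 for gns1, -0.18 to 0.13 for GSTU1, 0.00052 to 0.39 for VPE and -0.089 to 0.071 for AOS. With a pseudocount of 0.1 gns1 was at 0.0036. The chitinase gene fell below the filter of 5 FPKM and, in the deposited gene table, below that of 1. Of 91 results for 6 named neighbours, 86 kept direction, again counting settings that cannot change it. With 1 library left out LOC102614216 ranged from -0.72 to 0.33, LOC102628172 from 0.0048 to 0.76 and LOC102621779 from -0.079 to 0.23. The same ranges were -0.070 to 0.28 for MSTRG.6451.1, -0.53 to 0.20 for the annotated AOS transcript and -0.36 to 0.36 for that of LOC102614216. Over all genes the count past the threshold, 1, was 2 with robust variance, library weights, the deposited gene table or a pseudocount of 0.1, and 0 in limma with annotated transcripts only (806 at an unadjusted p under 0.05). It was 1 to 5 with 1 library left out: in the yeast + SA group 2 without replicate 1, 2 without replicate 2 and 3 without replicate 3, and in the yeast-only group 5 without replicate 2. With the replicate block it was 2, and 0 of 6 members passed. Between same-numbered libraries the correlation of deviations from group means was -0.0094 to 0.19, and between the others -0.25 to 0.14. Of the 6 libraries, 3 correlated best with their own number. These values do not settle whether the numbers are pairs, and the main test did not take them as such. The causes were not tested. Wider protein families were not run.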

Other observations

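The deposited gene table gave gns1 (LOC102614791) and LOC102614216 the same value in 6 of 6 libraries. The authors' deposited table listed both at 18.4, 16.4 and 4.35 in yeast + SA fruit and at 5.65, 39.3 and 8.83 in yeast-only fruit, in the unit of that table. For gns1 alone, the product of transcript FPKM and length divided by the deposited value varied from 363 to 465 between libraries. Summed over the 3 transcripts of the assembled locus that holds both genes, the same division gave 730 in every library, within 0.1%. For all 6 members the division was constant when summed by assembled locus, and for 4 of 6 when summed by gene name. In that table a value of gns1 therefore includes its neighbour and the joined transcript as well. For AOS the constant was 453 without the transcript on the opposite strand, against 454 to 456 with it.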
